A study of Homo sapiens with 6 samples.

Results

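The genes described here carry WNT signalling: its secreted ligands, the receptors and co-receptors that bind them, the extracellular antagonists, and the proteins that set the level and the activity of beta-catenin. They were followed in SN12C, a human renal carcinoma cell line, on 6 Illumina bead arrays. The members were a list of 56 gene symbols, and a member counted as measured where the platform annotation assigned its symbol to a kept probe, one whose detection p-value was below 0.05 in 3 or more arrays. This held for 38 of the 56 members, with 54 probes, among 11646 genes measured in all. The study, by its title, concerns the metabolism and signalling of NF2-deficient tumor cells after inhibition of YAP and TAZ, the transcriptional co-activators restrained by the Hippo kinases.

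The knockdown cells carried the doxycycline-inducible vector pTripz with an shRNA against YAP, pTripz with an shRNA against TAZ, and GFP-luc, and the control cells carried pTripz and GFP-luc. Both arms received doxycycline for at least 3 days, were grown in RPMI with 10% FBS, and stood in medium without FBS for the last 24 hours. Each arm was measured on 3 arrays, which the series describes as technical repeats of the 1 cell line, so the p-values measure the spread between arrays and not between independent cultures. Whether a line was a clone or a pool is not given in the sources used here.

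YAP1 was lower on every knockdown array. Its log2 intensity was 7.33, 6.77 and 6.56 on the knockdown arrays, against 8.47, 8.26 and 8.47 on the control arrays, a log2 change of -1.51 ± 0.19 (SE, n = 3 per arm, limma adjusted p = 0.00036). No kept probe was assigned to WWTR1, which encodes TAZ, so the second target was not checked. The share of the 47315 probes detected ran from 41.6% to 44.3% over the arrays, and across genes, which are not independent replicates, arrays correlated at 0.983 or above within an arm and at 0.954 or below between arms. Of 7 genes listed as renal epithelial markers PAX8, KRT8, KRT18 and VIM were measured. KRT8 (-1.07) and VIM (-0.45) were lower at an adjusted p under 0.05, while KRT18 (-0.36) and PAX8 (0.28) were not called. Over all genes, 19.5% were lower and 20.4% higher. VIM is not specific to epithelial cells. Of the 10 leukocyte, endothelial and fibroblast markers only CD14 and LUM were measured. CD14 was higher in knockdown cells by 0.71 on the log2 scale, and LUM, which was detected on 3 knockdown and 0 control arrays and passed the filter through the knockdown arm, was at least 1.17-fold higher. The part of these markers in the results was not tested. In such bulk RNA, fewer cells with a transcript and less of it per cell cannot be told apart.

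WNT proteins are lipid-modified by PORCN, carried to the cell surface by WLS and bound there by Frizzled receptors. With the co-receptors LRP5 and LRP6 this recruits Dishevelled and stops the destruction complex of APC, axin, GSK3 and casein kinase from marking beta-catenin for degradation, so that beta-catenin can join TCF/LEF factors on target genes. Other WNTs, with WNT5A as the best known, act mostly through ROR and RYK receptors without beta-catenin. In the embryonic kidney WNT signals induce the nephron. WNT5A, WNT5B and DKK1 have been described as targets of YAP and TAZ in other cells.

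Of the 38 measured members, 12 were higher in knockdown cells, 12 were lower and 14 did not pass the threshold (adjusted p under 0.05). Over all genes measured, 39.8% passed, 20.4% higher and 19.5% lower. The median log2 change of the members was 0.06, against 0.03 over all genes, and the median of its size was 0.41, against 0.30. By a change of at least 1 on the log2 scale, 7 members passed, against 8.39% of all genes. The arms did not overlap for 29 members, 76.3% of those measured, against 50.9% of all genes. With median scaling in place of quantile normalization, 3 members were called higher and 5 lower, and these 8 were WNT5A, WNT5B, FZD1, FZD3, FZD6, ROR2, SFRP1 and DKK1.

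Detection in 1 arm alone bears on these counts. WNT5A, ROR2, AXIN2 and TCF7L1 were detected on 0 knockdown arrays and passed the filter through the control arrays, so a difference was built into their selection. Among the 24 members detected on all 6 arrays, 11 were higher and 6 lower, and among all genes detected on all 6 arrays 42.7% were called. Left out 1 at a time, control arrays 1, 2 and 3 left 6, 7 and 5 lower members; those 4 genes were then not tested, as they failed the filter.

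**Figure D1:**
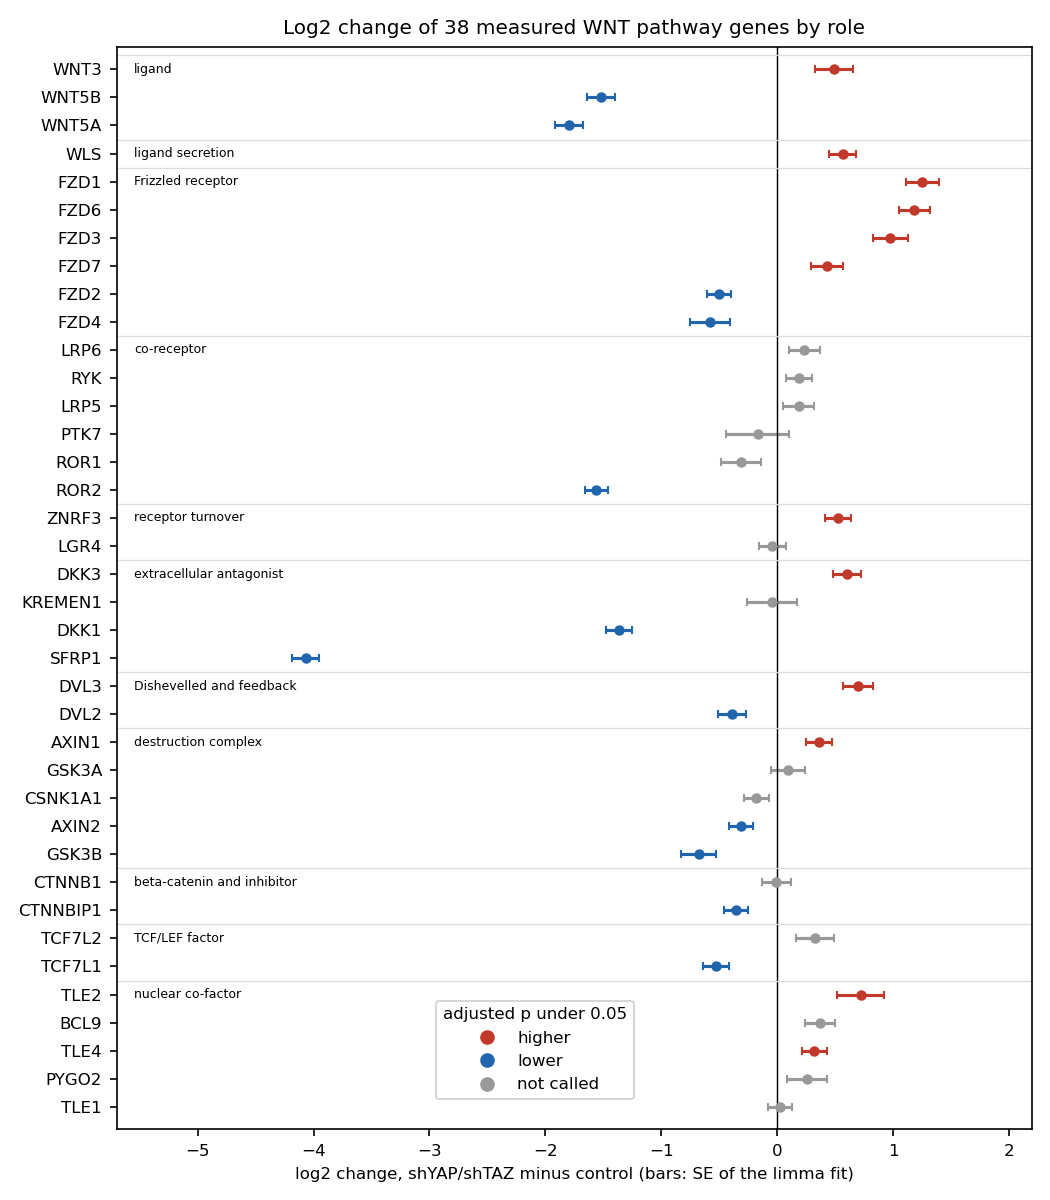
Log2 change in knockdown minus control cells for the 38 measured members, grouped by role from ligands at the top to nuclear co-factors at the bottom; points are fitted changes, bars their SE, and colours mark genes higher, lower or not called. SFRP1 lies far left at -4.07, FZD1 is the highest at 1.25, and CTNNB1 lies at -0.01.

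The ligands moved in both directions: WNT5A and WNT5B, which belong to the class that signals largely without beta-catenin, fell, and WNT3, a ligand of the beta-catenin branch, rose. WNT5A had log2 intensities of 4.17, 4.21 and 4.13 on the knockdown arrays, against 5.99, 6.15 and 5.76 on the control arrays. WNT5B had 5.45, 5.54 and 5.73 on the knockdown arrays, against 7.18, 6.98 and 7.12 on the control arrays. For both genes every knockdown array lay more than 1 below every control array, and neither pair of arms overlapped.

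WNT5A was not above background on any knockdown array and was at least 2.70-fold lower there (adjusted p = 1.3e-05, with 0 of 3 knockdown and 3 of 3 control arrays detecting it). WNT5B stayed detected on all arrays and fell by 1.52 ± 0.12 (SE) on the log2 scale, a 2.87-fold decrease (adjusted p = 2.43e-05). Without background correction the fitted decreases were 1.63-fold for WNT5A and 1.73-fold for WNT5B, still past the threshold. WNT3 averaged 7.57 in knockdown cells and 7.08 in control cells, a rise of 0.49 ± 0.17 (SE) with an adjusted p of 0.0443. That call ended without knockdown array 2 or 3 and without any 1 of the control arrays (adjusted p = 0.0576 to 0.143).

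WLS, the carrier that brings WNT ligands to the cell surface, was higher in knockdown cells. Its brightest probe gave 8.59, 8.36 and 8.44 on the knockdown arrays, against 7.87, 8.02 and 7.79 on the control arrays. All knockdown values lay above all control values, and the rise was 0.57 ± 0.12 (SE) on the log2 scale (1.48-fold, adjusted p = 0.00459). No kept probe was assigned to WNT7A, WNT7B, WNT10A, WNT11 or PORCN, the acyltransferase of the ligands.

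**Figure D2:**
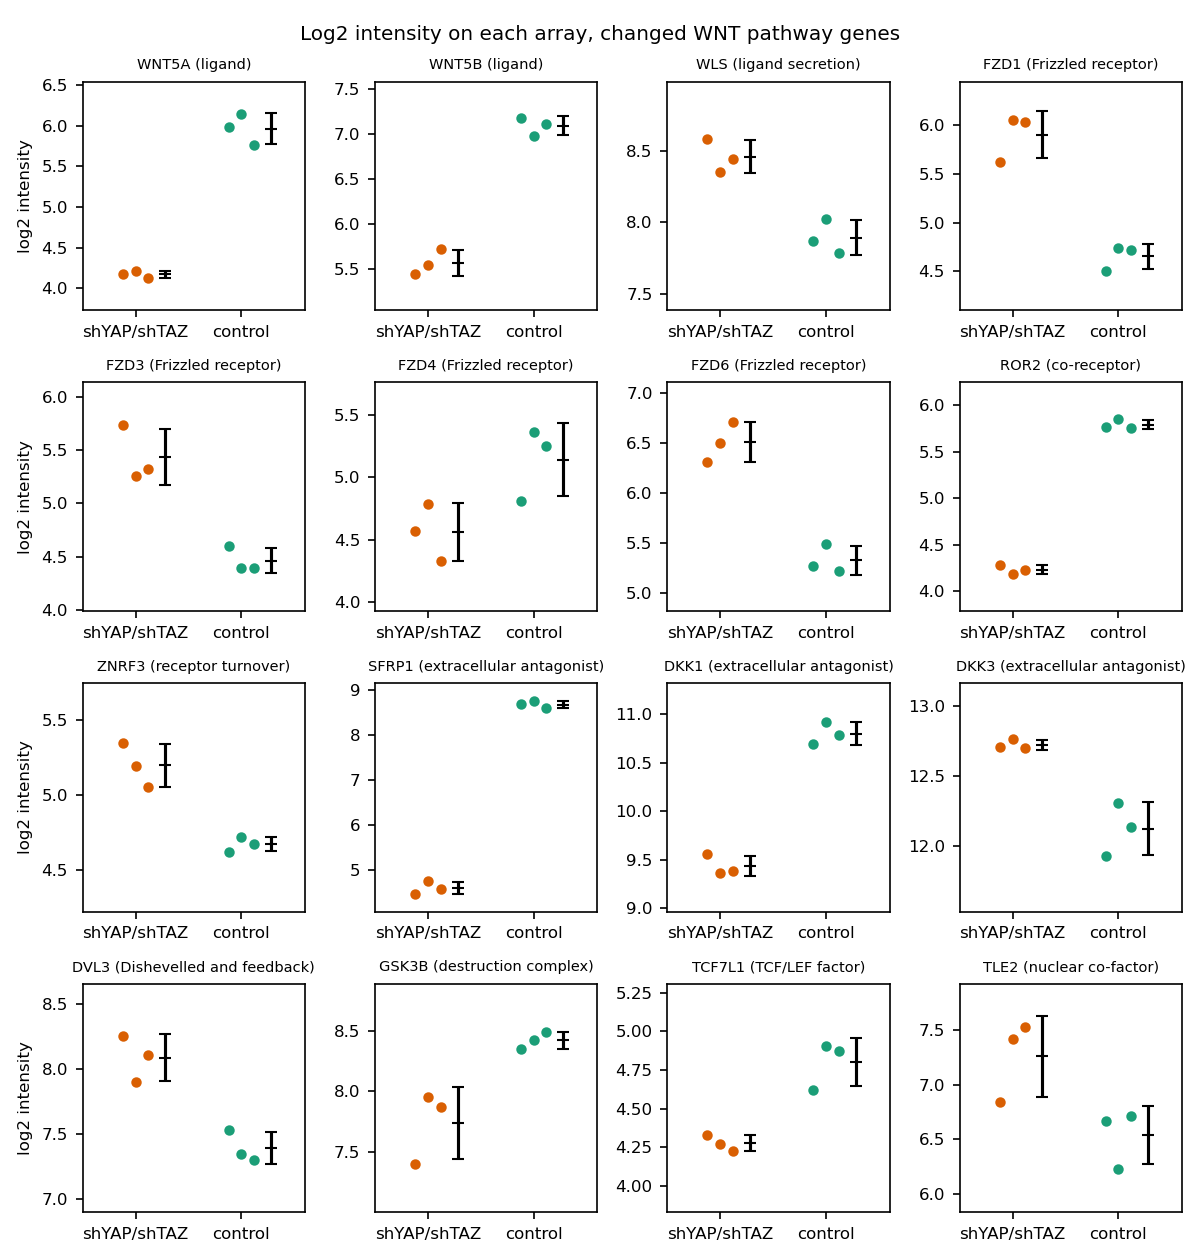
Log2 intensity on each array (points) with mean and SD (bars) for the 16 called members with a log2 change of 0.5 or more in size, with knockdown arrays left and control arrays right; each panel has its own axis, since levels of different probes are not comparable. Panels were limited to members whose arms did not overlap, so the separation in each panel follows from the choice of genes. Over all genes, the arms did not overlap for 50.9%.

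Frizzled receptors, the seven-pass proteins that bind WNT ligands, moved in both directions. All 6 measured Frizzled members passed the threshold, which 39.8% of all genes passed. FZD1, FZD3, FZD6 and FZD7 were higher and FZD2 and FZD4 lower in knockdown cells. Over all genes, 20.4% were higher and 19.5% lower. FZD1 gave 5.62, 6.05 and 6.04 on the knockdown arrays, against 4.50, 4.74 and 4.72 on the control arrays. FZD6 gave 6.31, 6.51 and 6.71 on the knockdown arrays, against 5.27, 5.49 and 5.22 on the control arrays. FZD3 gave 5.74, 5.26 and 5.32 on the knockdown arrays, against 4.59, 4.39 and 4.39 on the control arrays. In these 3 genes the knockdown arrays lay entirely above the control arrays. FZD1 was detected on 3 knockdown and 2 control arrays, and FZD3 on 3 knockdown arrays and 1 control array. On the control arrays both lay close to the lowest level at which probes were detected there (4.53 to 4.56).

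The rise was 2.38-fold for FZD1 (log2 change 1.25 ± 0.14 SE, adjusted p = 0.000222), 2.27-fold for FZD6 (adjusted p = 0.000219) and 1.97-fold for FZD3 (adjusted p = 0.000963). The fitted folds were smaller without background correction, at 1.36-fold for FZD1, 1.45-fold for FZD6 and 1.24-fold for FZD3, with the calls kept. FZD7 rose by a smaller amount, 0.43 ± 0.14 (SE) on the log2 scale (adjusted p = 0.0344). Its call ended without knockdown array 1 or 3 or control array 3 (adjusted p = 0.0667 to 0.135).

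FZD4, the receptor of the ligand norrin as well as of WNTs, gave 4.57, 4.79 and 4.33 on the knockdown arrays, against 4.81, 5.36 and 5.25 on the control arrays. The arms came close, with knockdown array 2 just under control array 1. The change was -0.58 ± 0.17 (SE, adjusted p = 0.0269), and it missed the threshold without background correction (0.0766) and without knockdown array 3, control array 2 or control array 3 (0.0863 to 0.101). FZD2 averaged 10.61 in knockdown cells and 11.11 in control cells, a fall of 0.50 ± 0.10 (SE, adjusted p = 0.00513) that held without any 1 array. No kept probe was assigned to FZD5 or FZD8.

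Among the 6 measured co-receptors only ROR2 passed the threshold. ROR2, a receptor tyrosine kinase for WNT5A, gave 4.28, 4.19 and 4.23 on the knockdown arrays, against 5.76, 5.85 and 5.76 on the control arrays. It was detected on 0 knockdown and 3 control arrays and was at least 2.39-fold lower in knockdown cells (adjusted p = 8.3e-06), or 1.47-fold lower without background correction. The other 5 measured co-receptors did not pass, with log2 changes of 0.24 for LRP6, 0.19 for LRP5, 0.19 for the kinase-like receptor RYK, -0.17 for PTK7 and -0.31 for ROR1. The SE of PTK7, a planar polarity co-receptor, was 0.27, the widest of the members, and its knockdown arrays ranged from 7.55 to 8.52.

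ZNRF3, a membrane ubiquitin ligase that removes Frizzled receptors and is itself a beta-catenin target, was higher in knockdown cells. It gave 5.34, 5.19 and 5.05 on the knockdown arrays, against 4.62, 4.72 and 4.67 on the control arrays, a change of 0.52 ± 0.11 (SE, adjusted p = 0.00588). The arms did not overlap, and the fitted fold was 1.44, or 1.12 without background correction. LGR4, the R-spondin receptor that inhibits such ligases, was detected on 2 knockdown arrays and 1 control array and did not pass (-0.04). RNF43, the relative of ZNRF3, had no kept probe assigned.

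Secreted antagonists held the largest fitted change among the measured members. SFRP1, which binds WNT ligands outside the cell, gave 4.48, 4.75 and 4.58 on the knockdown arrays, against 8.68, 8.75 and 8.59 on the control arrays. Before normalization, its probe read 100.6, 96.7 and 93.1 on the knockdown arrays, against 360.2, 716.9 and 403.1 on the control arrays. On the knockdown arrays SFRP1 was thus close to the lowest level at which probes were detected (4.50 to 4.56 on the log2 scale), and 2 of those 3 arrays still detected it. The fitted decrease was 16.8-fold (log2 change -4.07 ± 0.11 SE, adjusted p = 1.22e-07), or 4.94-fold without background correction.

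DKK1, which blocks LRP5 and LRP6, also fell. It gave 9.56, 9.37 and 9.39 on the knockdown arrays, against 10.69, 10.92 and 10.79 on the control arrays. The values lay far above background in both arms, and the 2.57-fold decrease (log2 change -1.36 ± 0.11 SE, adjusted p = 3.5e-05) was nearly the same without background correction, at 2.42-fold. DKK3, a relative that does not share the LRP-binding role of DKK1, went the other way. It gave 12.71, 12.77 and 12.70 on the knockdown arrays, against 11.93, 12.31 and 12.13 on the control arrays, a rise of 0.60 ± 0.12 (SE, adjusted p = 0.00438). KREMEN1, a DKK1 receptor, did not pass (-0.05), and WIF1 had no kept probe assigned.

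Promoter letters were searched for the core of the TEAD site, through which YAP and TAZ reach DNA (GGAATG), and of the TCF/LEF site (CTTTGA), on both strands. The 300-base windows of RefSeq (GRCh38.p14) run from 250 bases before to 50 bases after a start, and 28 of the measured members had at least 1 window. The TEAD letters occurred in 3 of the 37 member windows (8.11%), against 11.4% of the 13602 windows of genes measured and 14% of all 35116 windows. The TCF/LEF letters occurred in 4 of the 37 (10.8%), against 9.06% of the windows of genes measured and 12.9% of all windows. Members not called held matches too, GSK3A the TEAD letters and CSNK1A1 the TCF/LEF letters. DKK1 was the only called member whose window held both, with GGAATG starting 50 bases before the start and CTTTGA matches at 95 bases (same strand) and 149 bases (other strand) before it. Its upstream 250 bases (chr10:52314031-52314280, plus strand) are shown with all 3 matches in capitals, the other-strand match reading TCAAAG. A match is a description of letters, and no binding was measured here.
DKK1: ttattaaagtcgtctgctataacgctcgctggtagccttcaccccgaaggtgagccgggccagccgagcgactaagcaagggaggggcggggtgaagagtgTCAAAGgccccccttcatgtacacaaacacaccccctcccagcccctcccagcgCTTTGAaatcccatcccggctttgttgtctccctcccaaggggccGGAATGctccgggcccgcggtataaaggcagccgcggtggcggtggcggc

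Dishevelled proteins, which relay the signal from Frizzled, went opposite ways. DVL3 gave 8.25, 7.90 and 8.11 on the knockdown arrays, against 7.53, 7.34 and 7.29 on the control arrays, a rise of 0.70 ± 0.13 (SE, adjusted p = 0.00276). DVL2 fell by 0.39 ± 0.12 (SE, adjusted p = 0.0284), averaging 6.62 in knockdown cells and 7.02 in control cells. The DVL2 call ended without knockdown array 1 or 2 or control array 1 or 3 (adjusted p = 0.0511 to 0.0926). DVL1 and NKD1, a Dishevelled-binding inhibitor, had no kept probe assigned.

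In the destruction complex 2 members fell, 1 rose and 2 did not pass. GSK3B, a kinase that phosphorylates beta-catenin for degradation, gave 7.40, 7.95 and 7.87 on the knockdown arrays, against 8.34, 8.42 and 8.49 on the control arrays. Knockdown array 1 was the lowest of the 6, and without it the change was -0.51, against -0.68 ± 0.15 (SE, adjusted p = 0.00761) on all arrays. GSK3A, its paralogue, did not pass (0.09), and neither did casein kinase CSNK1A1 by its brightest probe (-0.18).

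The axin scaffolds differed in direction. AXIN1 rose by 0.37 ± 0.11 (SE, adjusted p = 0.0287), and this call ended without knockdown array 1 or 2 or any 1 control array (0.0531 to 0.104). AXIN2, a feedback inhibitor and widely used readout of beta-catenin activity, was detected on 0 knockdown and 3 control arrays, averaged 4.41 in knockdown cells and 4.72 in control cells, and was at least 1.14-fold lower (adjusted p = 0.0407). It sat near the detection limit in both arms, and its call ended without any 1 knockdown array (0.072 to 0.117) and without background correction (0.176). APC had no kept probe assigned.

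No difference in beta-catenin RNA passed the threshold. CTNNB1 gave 7.69, 7.54 and 7.39 on the knockdown arrays, against 7.37, 7.62 and 7.66 on the control arrays. The arms overlapped, and the log2 change was -0.01 ± 0.13 (SE, adjusted p = 0.972). A second kept probe of CTNNB1 gave 0.04 ± 0.11 (SE). CTNNBIP1, a small protein that keeps beta-catenin from TCF factors, fell by 0.35 ± 0.11 (SE, adjusted p = 0.0284), a call that ended without knockdown array 1 or 3 or control array 1 or 3 (0.0571 to 0.107). RNA levels say nothing of the amount or location of beta-catenin protein, through which the pathway is mainly controlled.

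Of the TCF/LEF factors, TCF7L1 and TCF7L2 were measured. TCF7L1, known mainly as a repressor, gave 4.33, 4.27 and 4.23 on the knockdown arrays, against 4.62, 4.91 and 4.87 on the control arrays. It was detected on 0 knockdown and 3 control arrays and was at least 1.21-fold lower in knockdown cells (adjusted p = 0.00647). TCF7L2, the factor with the broadest role in epithelia, changed by 0.33 ± 0.16 (SE, adjusted p = 0.15) and passed only with the replicate number as a block (0.0245). TCF7 and LEF1 had no kept probe assigned.

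Nuclear co-factors were higher or not called. TLE2, a Groucho-type co-repressor that binds TCF factors, gave 6.84, 7.42 and 7.53 on the knockdown arrays, against 6.67, 6.23 and 6.71 on the control arrays. The arms came close at knockdown array 1 and control array 3, and the rise was 0.72 ± 0.20 (SE, adjusted p = 0.0203). It missed the threshold without knockdown array 2 or 3 or control array 2 (0.0669 to 0.0732). TLE4, another co-repressor, rose by 0.32 ± 0.11 (SE, adjusted p = 0.0468), and leaving out any 1 array other than control array 2 ended the call (0.0669 to 0.178).

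TLE1 did not pass (0.03), and TLE3 had no kept probe assigned. The co-activators of beta-catenin, BCL9 (0.37 ± 0.13 SE, adjusted p = 0.052) and PYGO2 (0.26, adjusted p = 0.272), did not pass. With the replicate number as a block BCL9 passed (0.0327), and it also passed without knockdown array 1 (0.0137). BCL9 passed too with the mean of probes (0.0473). In the fit of genes detected on all 6 arrays it passed (0.0471) and was counted among the higher members. PYGO2 passed without control array 2 (0.0494). VANGL1, VANGL2 and PRICKLE1, core proteins of planar cell polarity, had no kept probe assigned.

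Called co-repressors whose upstream sequence held one of the letter motifs are shown with the match in capitals (GRCh38.p14). TLE2 (chr19:3047636-3047885, minus strand) held GGAATG from 91 bases before 1 of its starts. TLE4 held the TCF/LEF letters upstream of each start shown here. They lay on the other strand at chr9:79571715-79571964 (TCAAAG, 19 bases before the start). They lay on the same strand at chr9:79572927-79573176 (CTTTGA, 114 bases before that start). Both stretches are on the plus strand of the genome.
TLE2: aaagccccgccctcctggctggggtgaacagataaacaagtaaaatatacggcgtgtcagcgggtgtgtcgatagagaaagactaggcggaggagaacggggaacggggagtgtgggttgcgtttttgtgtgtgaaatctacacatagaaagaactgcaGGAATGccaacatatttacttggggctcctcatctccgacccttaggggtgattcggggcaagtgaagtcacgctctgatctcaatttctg
TLE4, upstream start: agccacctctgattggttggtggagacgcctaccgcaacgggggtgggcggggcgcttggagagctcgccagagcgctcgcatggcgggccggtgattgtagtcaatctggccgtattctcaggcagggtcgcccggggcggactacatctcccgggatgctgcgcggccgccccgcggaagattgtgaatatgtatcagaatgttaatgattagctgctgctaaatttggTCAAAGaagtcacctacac
TLE4, downstream start: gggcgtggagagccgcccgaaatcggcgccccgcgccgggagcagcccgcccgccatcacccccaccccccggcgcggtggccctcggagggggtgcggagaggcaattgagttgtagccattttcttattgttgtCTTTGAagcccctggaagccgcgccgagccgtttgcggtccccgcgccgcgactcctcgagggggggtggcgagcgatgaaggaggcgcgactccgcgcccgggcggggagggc

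Several probes could be compared for 9 members. The probes of FZD1 matched closely, at 1.25 and 1.10 on the log2 scale, and both passed when all kept probes were tested together. The dimmer FZD1 probe was detected on 3 knockdown and 0 control arrays. It passed the filter through the knockdown arm, so a difference was built into its selection. All 5 probes of WLS were higher in knockdown cells, from 0.20 to 0.57, and 2 passed. All 4 probes of DKK3 were higher too, from 0.14 to 0.74, and the 2 brightest passed. The dimmest DKK3 probe (0.14) was detected on 3 knockdown and 0 control arrays, so a difference was built into its selection as well. The 3 probes of CSNK1A1 disagreed in size: the brightest and the dimmest gave -0.18 and -0.21 and did not pass, whereas the middle one gave -0.62 ± 0.11 (SE, adjusted p = 0.00402). With the mean of its probes CSNK1A1 passed (-0.34, adjusted p = 0.0321).

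PTK7 gave opposite signs with its 2 probes, -0.17 and 0.17, neither called. For TLE4 the dimmer probe passed (0.39, adjusted p = 0.0295) while the brighter one missed the threshold in that fit (0.0622). The FZD7 probes gave 0.43 and 0.34, of which the dimmer did not pass, and with the mean of its probes FZD7 was not called.

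**Figure D3:**
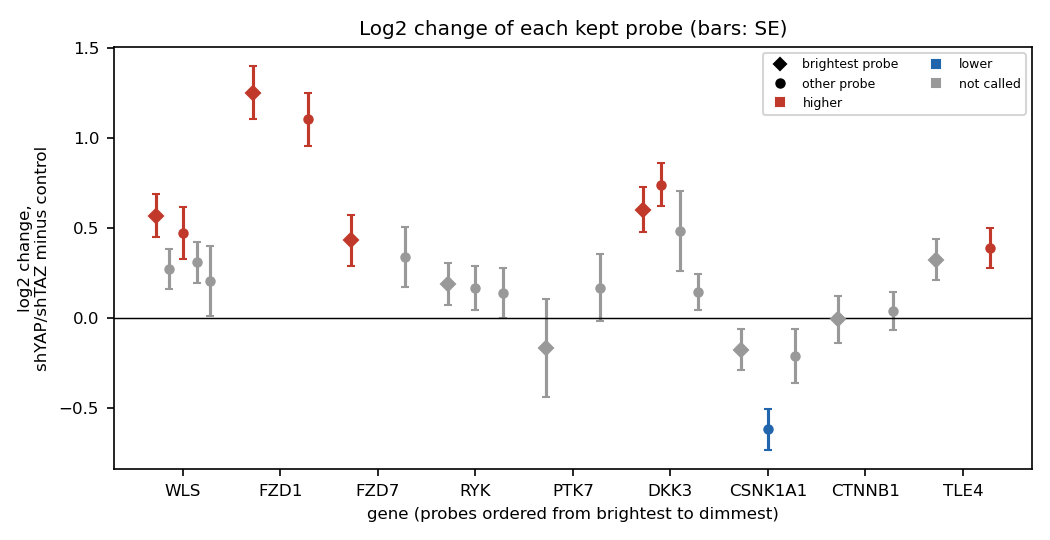
Log2 change in knockdown minus control cells (vertical axis) for every kept probe of the 9 members with several probes, from the brightest (diamond) to the dimmest; bars are SE and colours mark the call in the fit over all kept probes. The FZD1 probes lie together above 1, and 1 of the 3 CSNK1A1 probes lies apart at -0.62.

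How large the changes of dim genes were depended on background correction. For 7 of the 24 called members the fitted fold was more than 1.5 times smaller without it: SFRP1, WNT5A, ROR2, FZD1, WNT5B, FZD3 and FZD6. DKK1, DKK3 and FZD2, whose probes were bright, hardly moved, with 2.42-fold, 1.51-fold and 1.39-fold without correction, against 2.57-fold, 1.52-fold and 1.41-fold with it. A bound given as at least some fold therefore holds for the correction used here.

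**Figure D4:**
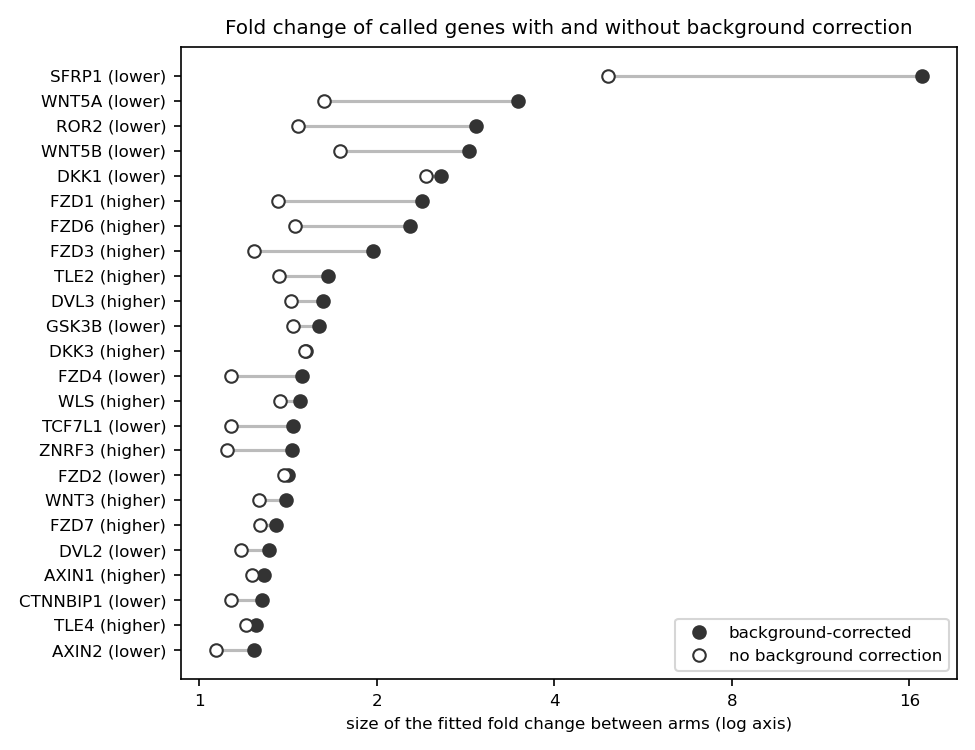
Size of the fitted fold change between the arms (log axis) for the 24 called members, with background correction (filled) and without (open), the direction in knockdown cells beside each name. The open symbol of SFRP1 lies at 4.94 and its filled symbol at 16.8, while both symbols of DKK3 coincide near 1.5.

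Genes of the pathway outside the members were read from a list of 61 symbols, of which 31 were measured. In knockdown cells 9 were higher, 2 were lower and 20 did not pass, so 11 of 31 were called. Over all genes 39.8% were called, 20.4% higher and 19.5% lower. The 31 genes had a median log2 change of 0.20, against 0.03 over all genes. None changed by 1 or more, so all named here were chosen after their values were seen. The higher genes were CREBBP (0.79) and EP300 (0.54), which encode acetyltransferase co-activators, BCL9L (0.70) and PYGO1 (0.40), relatives of BCL9 and PYGO2, AMER1 (0.60), a scaffold of the destruction complex, CELSR2 (0.58), a polarity cadherin, FZD9 (0.50), CSNK1G2 (0.45), a casein kinase, and the co-repressor CTBP1 (0.39). The lower genes were PRICKLE2, a polarity protein (-0.77 ± 0.10 SE, adjusted p = 0.000579), and FRZB, a secreted Frizzled-related antagonist (-0.51 ± 0.10 SE, adjusted p = 0.00343).

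Genes known as targets of beta-catenin and TCF in other tissues went both ways. Of 38 listed 21 were measured, with 5 higher, 8 lower and 8 not called in knockdown cells, against 39.8% of all genes called, 20.4% higher and 19.5% lower. Their median log2 change was 0.10, against 0.03 over all genes. L1CAM, TNFRSF19 and AXIN2, among the 8 lower, were detected on 0 knockdown arrays and passed the filter through the control arrays, so a difference was built into their selection. Without control array 2, the number called was 8 in place of 13. CCND1, cyclin D1, gave 10.95, 10.88 and 10.76 on the knockdown arrays, against 9.38, 9.36 and 9.38 on the control arrays, a 2.81-fold rise (adjusted p = 1.3e-05). CLDN1, the tight junction protein claudin 1, gave 8.75, 8.64 and 8.47 on the knockdown arrays, against 9.64, 10.08 and 9.96 on the control arrays, a 2.42-fold fall (adjusted p = 0.000189). Both genes separated the arms without overlap, in opposite directions.

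The other higher targets, named after their values were seen, were BAMBI (0.98), SOX9 (0.59), ZNRF3 (0.52) and CD44 (0.38). The lower ones beside CLDN1 and DKK1 were PLAUR (-0.58), TIAM1 (-0.53) and PPARD (-0.45), and, by bounds alone, L1CAM (at least 1.65-fold), TNFRSF19 (at least 1.6-fold) and AXIN2 (at least 1.14-fold). MYC did not pass (0.12). Many of these genes also answer to other pathways, and the 3 measured members that double as feedback genes of the pathway split, with ZNRF3 higher and DKK1 and AXIN2 lower.

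**Figure D5:**
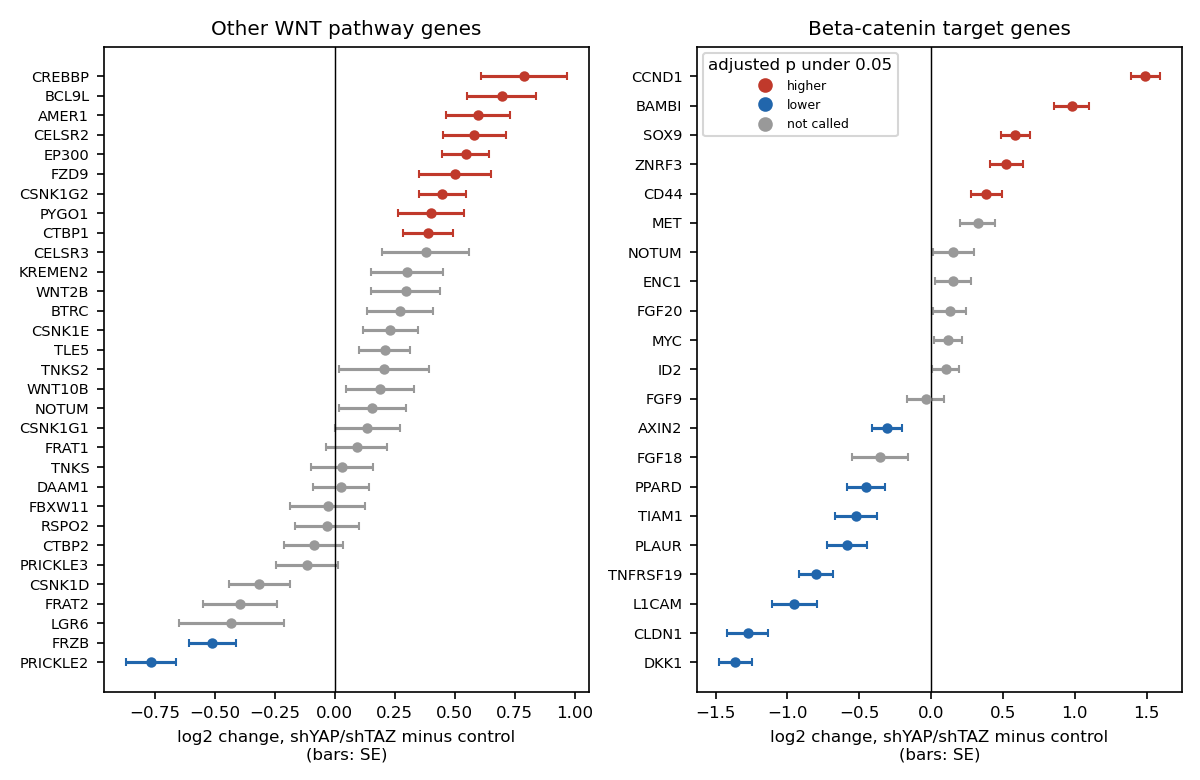
Log2 change in knockdown minus control cells, with SE, for 31 further pathway genes (left) and 21 beta-catenin target genes (right), ordered by change and coloured by call. CREBBP at 0.79 and PRICKLE2 at -0.77 end the left panel, and CCND1 at 1.49 and DKK1 at -1.36 end the right one.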

How the data were processed

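Intensity values of each probe, not normalized, and a detection p-value per probe and array were deposited in 1 table, per the file headers. A second deposited table holds log2 values, and the submitters' processing notes name limma without a version; other steps, and the scanner, are not stated in these sources. Of 48202 lines, 887 without a probe identifier were left out, leaving 47315 probes. Intensities were corrected by normexp with the detection p-values (offset 16), quantile-normalized and brought to log2 (nec of limma 3.58.1, R 4.3.3), which matched the deposited log2 values within 0.0238. Each deposited column had a median of 6.26.

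Probes were kept where 3 or more of the 6 arrays had a detection p-value below 0.05, 20348 in all, the same probes as in the deposited log2 table. The platform annotation gave 1 symbol to 15493 of them, several to 4 and none to 4851. It names only probes of the deposited log2 table, so a member without a named probe may have been undetected or unnamed. Entrez identifiers of 15484 probes matched the current gene table, and 0 symbols changed. A gene was represented by its kept probe of highest mean intensity. The arms were compared by lmFit and eBayes of limma with group as the only term, two-sided, with Benjamini-Hochberg adjustment over 11646 genes, and the fit was tested on simulated data. Where 0 arrays of an arm detected a probe, "at least N-fold" uses for each such array the higher of its value and the lowest detected value. The number of arrays limits the precision.

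Values on every array are given for called members with an absolute log2 change of at least 0.5 and no overlap, and for CTNNB1; from the other lists, called genes with a change of at least 1 were to be named. The members and the lists were chosen with earlier results of these data known. Arrays carry the numbers 1 to 3 in both arms, and deviations from the arm means correlated at 0.628, 0.271 and 0.468 between arrays of the same number, which is the only basis for treating the numbers as pairs; knockdown array 2 correlated more with control array 3 (0.379). Alternatives covered the background correction, scaling, detection filter, choice of probe, variance model, replicate block, the deposited table and leaving out each array.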

Additional observations from a re-analysis of the deposited data

How the results depend on the processing

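Over 18 other settings, 0 of 655 results for single members changed direction with a call. Of the 655, 576 kept their side of the threshold, and these include members not called, some of which, such as CTNNB1, changed sign. A call was lost in 72 and gained in 7. WNT5A, WNT5B, FZD1, FZD3, FZD6, ROR2, SFRP1 and DKK1, 8 of 24 called members, kept theirs in every setting in which they were tested, which leaves out detection on all 6 arrays for WNT5A, ROR2, SFRP1, FZD1 and FZD3, and the settings without a control array for WNT5A and ROR2. Median scaling over all probes lowered the calls to 1235 genes, 3 members higher, 5 members lower, 0 other pathway genes (limma, with 5 at an unadjusted p under 0.05) and 4 beta-catenin targets, ended 16 member calls and widened the median SE of all genes to 0.28, against 0.128. Median scaling over the kept probes alone, chosen after seeing the data, gave 3699 genes and ended 7 member calls. Detection on all 6 arrays left 6 lower members; WNT5A, ROR2, AXIN2, TCF7L1, SFRP1 and FZD4 then failed the filter. Leaving out 1 array gave 3361 to 4218 genes, 8 to 10 members higher, 5 to 10 members lower, 9 to 12 other pathway genes and 8 to 12 targets. With the replicate block the counts were 5627 genes, 14 members higher (BCL9 and TCF7L2 added), 12 lower, 15 other pathway genes and 15 targets, YAP1 had an adjusted p of 0.000107, and no other member's call changed. YAP1 stayed called throughout, between -1.75 and -1.09. At an unadjusted p under 0.05, 25 members passed. Folds of probes near background depend on its correction, and the cause of the lost calls was not tested.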
